A study of Saccharomyces cerevisiae with 10 samples.

Results

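The genes described here are 47 genes of amino acid biosynthesis under Gcn4 in budding yeast (Saccharomyces cerevisiae). They were chosen by systematic name from the HIS, ARG, LEU, ILV, BAT, LYS, TRP, ARO, HOM and THR pathways, with ASN1, ASN2, GLN1, GDH1 and the activator GCN4 itself. They were followed in messenger RNA libraries that hold 7126 targets besides the spike-in RNAs. All 47 were among the 6390 genes that passed the filter on low counts. For 8 of them (ARG5,6, LEU4, LEU9, LYS20, LYS21, TRP4, ASN1 and ASN2) the estimated counts were not whole, because reads were shared with another target.

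The 10 libraries came from diploids of strain BY4743 in mid-log growth in YPD, a rich glucose medium, with 2 replicates in each of 5 groups. The groups were naive diploids, [ESI+] diploids, and homozygous diploids without HOS2, SET3 or SNT1. The [ESI+] state (expressed sub-telomeric information) behaves like a prion and passes to daughter cells without a change in DNA sequence. Hos2, Set3 and Snt1 belong to the histone deacetylase complex named after Set3. The labels name the strain without its markers. As background, BY4743 is known as a strain with deletions at HIS3, LEU2 and URA3 on both homologs and with 1 intact copy of LYS2. The labels do not say whether replicates were separate cultures or clones, so the p-values measure the spread between these libraries only.

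Gcn4 is the transcription activator of general amino acid control. When amino acids run short, uncharged transfer RNA activates the kinase Gcn2, initiation factor eIF2 is phosphorylated, and translation of GCN4 messenger RNA rises because ribosomes pass the short reading frames upstream of it. Gcn4 protein then binds a short element upstream of genes in nearly every amino acid pathway. In rich medium, where amino acids are supplied, this control is largely relaxed. Messenger RNA levels of GCN4 do not report the amount of Gcn4 protein, which was not measured.

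The core of the Gcn4 element is TGACTC, and its preferred form is TGACTCA. In RefSeq's R64 genome the window from 250 bases before to 50 bases after the first base of the start codon held TGACTC on either strand at 26 of the 47 genes (55.3%), against 479 of 6001 nuclear protein-coding genes (7.98%). The longer TGACTCA, which contains the shorter motif, was found at 20 of the 47 (42.6%) and at 164 of 6001 (2.73%). A match describes the letters in the window and is not evidence of binding. The windows below belong to genes that differed between groups in the tests that follow. Each is read 5′ to 3′ on the strand that carries the gene, and capitals mark the element or its reverse complement.
HIS3 (YOR202W), chrXV:721812-721841, + strand: ccacctagcggaTGACTCtttttttttctt
HIS5 (YIL116W), chrIX:142714-142743, + strand: tcttggatctgtTGACTCacttcaattgat
ARG4 (YHR018C), chrVIII:141564-141593, - strand: ttagtagatgaaTGACTCactttttggata
LYS1 (YIR034C), chrIX:420853-420882, - strand: ttcagcgacaaaGAGTCAtaaagtcatcct
ILV6 (YCL009C), chrIII:105681-105710, - strand: tcaccgttatcgTGACTCactttctttcgc
ILV5 (YLR355C), chrXII:839376-839405, - strand: gatgacctaactTGACTCaatggcttttac
BAT1 (YHR208W), chrVIII:517349-517378, + strand: attgccttcttaTGACTCaaaattctattg
THR1 (YHR025W), chrVIII:159325-159354, + strand: aaatttgtgcaaGAGTCAtcatctcgaaaa
ASN1 (YPR145W), chrXVI:822381-822410, + strand: tcatgtaacattTGACTCattctgtaaact
ASN2 (YGR124W), chrVII:739735-739764, + strand: ttttcttagcatTGACTCatggcaagattt

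These sites lie between 101 and 227 bases before the start codon, the THR1 site nearest and the ASN1 site farthest. LYS1 has a second TGACTC farther upstream. The windows of GDH1 (YOR375C), ARG1 (YOL058W) and ARO2 (YGL148W), which also differed between groups, and of GCN4 (YEL009C) itself held no TGACTC.

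The sum of estimated counts ranged from 8327730 in set3 replicate 2 to 80651800 in set3 replicate 1, and the 47 genes took 1.45% to 1.79% of each library. HOS2, SET3 and SNT1 were each at 0.263 CPM or less in their own deletion and at 3.97 CPM or more elsewhere, so the labels of the deletions held. CPM are counts divided by a library size that edgeR's trimmed mean of M-values (TMM) has scaled. LEU2, which is deleted in this strain as generally described, had reads in all 10 libraries, from 0.279 to 3.12 CPM, with the highest values, 2.58 and 3.12 CPM, in [ESI+]. The source of those reads was not tested. Of 14 markers of haploid cells and mating, summed levels were 18.8 to 47.1 CPM in all libraries, the highest in [ESI+] replicate 2. In [ESI+] against naive 3 of the 14 (STE5, STE18 and AXL1) were higher and none lower by edgeR's test, or 21.4% beside 28.3% of all genes. The median log2 fold change of the 14 was 0.61, with 9 values above 0 and 5 below, the lowest -0.77. Against the deletions 6 of the 14 were higher and none lower, or 42.9% beside 35.1% of all genes, with a median of 1.02. Their part in the results below was not tested. For each library, silent genes were taken from the groups other than its own and [ESI+]. Their median level was 0.342 and 2.34 CPM per kb in the [ESI+] libraries and at most 0.101 elsewhere. These CPM divide by the plain sum of counts, without the TMM scaling.

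Per length, GLN1, the glutamine synthetase, was the highest of the 47 in naive cells, at 1182 and 1211 TPM (a level scaled by length and library). ILV6, the regulatory subunit of acetolactate synthase, followed at 951 and 1161 TPM, and GCN4 was the third at 713 and 624 TPM. At the low end stood ARG3, ornithine carbamoyltransferase, at 0.762 and 1.08 TPM, with only 25 and 22 counts in the naive libraries. GLN1 and ILV6 did not overlap in the naive libraries, but GCN4 at rank 3 and ILV5 at rank 4 did, since ILV5, acetohydroxyacid reductoisomerase, had 468 and 731 TPM. LYS2, aminoadipate reductase, of which BY4743 is known to have 1 intact copy, was at 7.10 and 7.46 TPM, rank 44 of 47.

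Within the naive group all 47 genes had a higher CPM in replicate 2 than in replicate 1, by a median of 0.52 on the log2 scale (1.43-fold), with a range from 0.11 for TRP2 to 1.13 for ILV5. Of all 6390 genes, 49.7% were higher in replicate 2. The shift was not limited to these genes. Among 752 other genes with a mean CPM within the interquartile range of the 47, 85.4% were higher in replicate 2, by a median of 0.34, and all 15 amino acid permeases on a separate list were higher too, by a median of 0.50. The summed level of the 47 genes was 13978 CPM in naive replicate 1 and 21209 CPM in naive replicate 2. It was 12333 and 11652 CPM in the [ESI+] libraries, both below either naive library, and 13635 and 15706 CPM without HOS2. Without SET3 it was 17500 and 16937 CPM, between the naive values, and without SNT1 17692 and 24713 CPM, with a gap between replicates nearly as wide as that of naive. In the snt1 pair 37 of the 47 genes were higher in replicate 2, by a median of 0.29, whereas the other groups' pairs had medians between -0.10 and 0.087. The naive libraries serve in each comparison with naive, so those 4 comparisons share this spread.

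**Figure D1:**
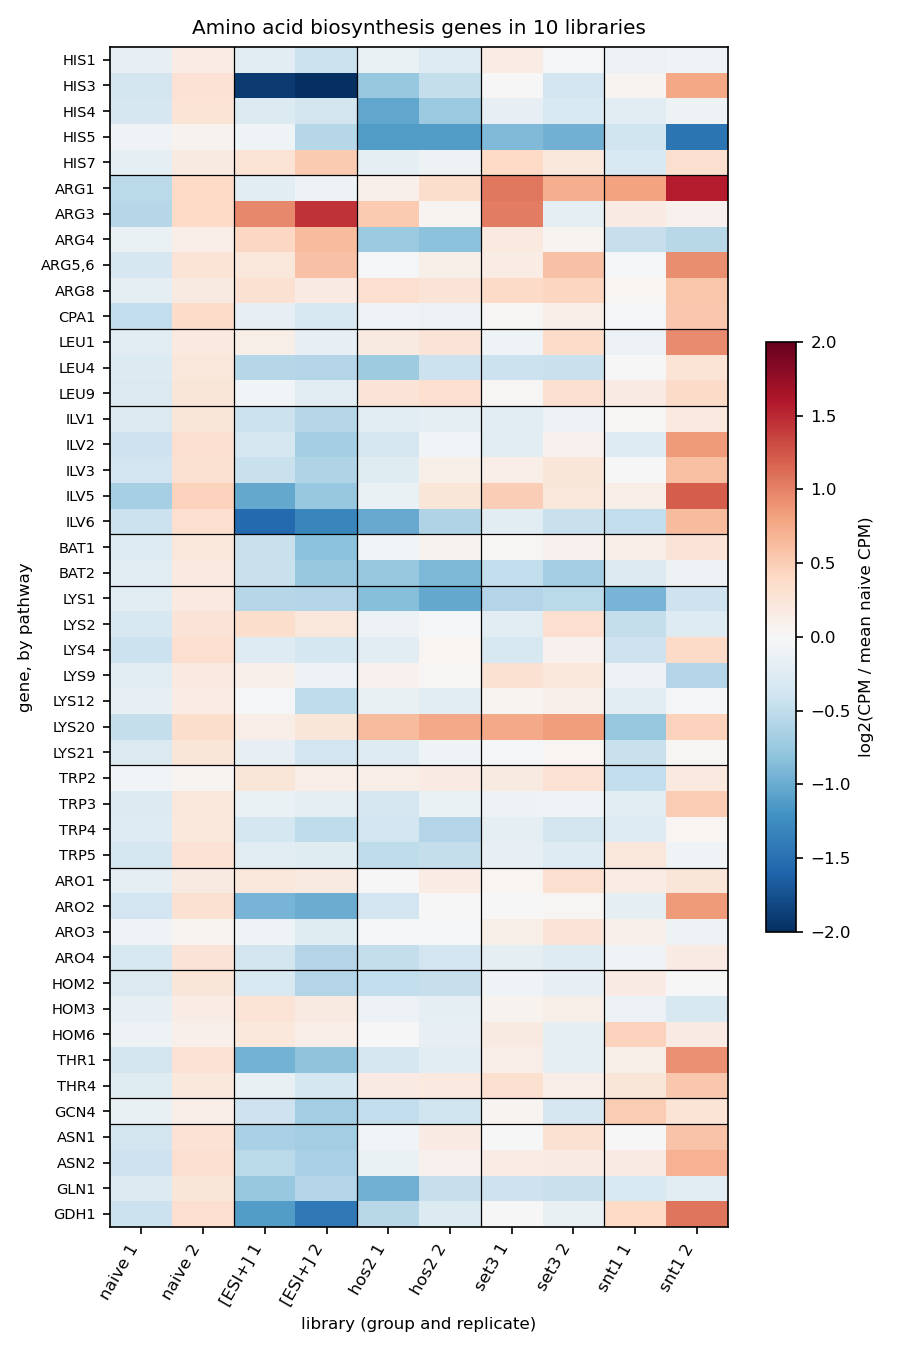
Each row is 1 of 46 of the genes, ordered by pathway, and each column 1 library; colour gives log2 of the CPM over the mean naive CPM, with red higher and blue lower and the scale ending at -2 and 2. The naive replicate 2 column is red in each row, and HIS3 in the [ESI+] columns is the deepest blue.

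**Figure D2:**
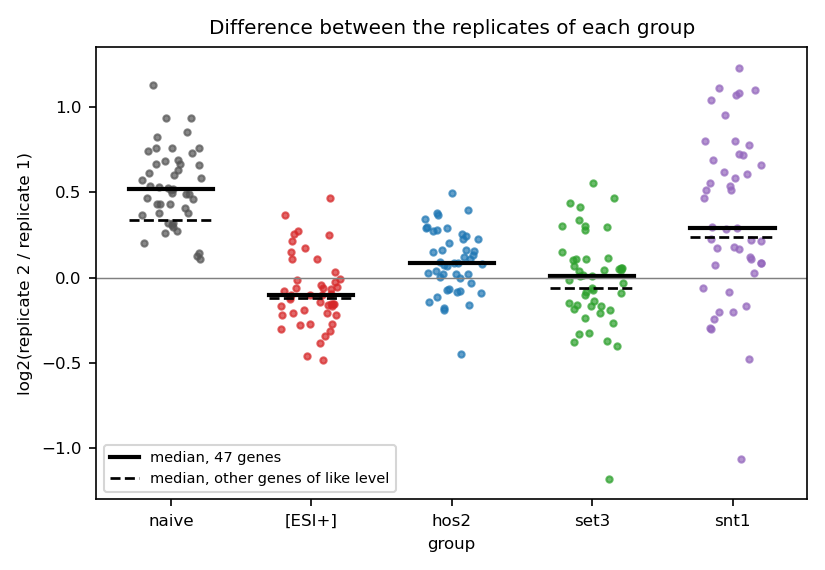
Each point is 1 of the 47 genes, placed by log2 of its CPM in replicate 2 over replicate 1 of a group; the solid bar is their median and the dashed bar the median of 752 other genes of like level. All 47 points of the naive pair lie above 0, with a median of 0.52.

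In [ESI+] cells 4 of the 47 genes passed the test against naive cells. HIS3, ILV6 and GDH1 were lower and 1 gene was higher, and the other 43 did not pass the test (edgeR's quasi-likelihood test, Benjamini-Hochberg adjusted p under 0.05 over 6390 genes). The 4 called genes are 8.51% of the 47, while 28.3% of all genes tested were called in this comparison, 13.9% higher and 14.5% lower. At an unadjusted p under 0.05 there were 15 of the 47, beside 42.5% of all genes. DESeq2 called 15 of the 47 (31.9%), beside 32.1% of all genes. In bulk RNA, fewer cells that express a gene and less of its RNA per cell cannot be told apart. The median log2 fold change of the 47 genes was -0.30, beside 0.093 for all genes. At 22 of the 47 both [ESI+] libraries lay below both naive libraries, and at 8 both lay above, beside 32.5% and 39.7% of all genes.

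Of the 46 genes other than HIS3, 1 was higher and 2 were lower (6.52%, beside 28.3% of all genes). HIS3, imidazoleglycerol-phosphate dehydratase of histidine synthesis, is deleted in this strain as generally described. It had 76.3 and 121 CPM in naive cells and 26.1 and 23.9 CPM in [ESI+] cells. Both [ESI+] libraries lay far below both naive libraries and below each of the 6 deletion libraries. The log2 fold change was -1.98 ± 0.30 (SE), or 25.4% of the naive level (edgeR, adjusted p = 0.00144). Which part of the gene the reads cover cannot be read from counts per target. Its neighbours on chromosome XV, MRM1 and DED1, had log2 fold changes of -0.52 (adjusted p = 0.0673) and -1.09 (adjusted p = 0.0566) and did not pass here, though both did in the comparison of [ESI+] with the deletions. Of 451 genes within 10% of its coding length, 1.33% had a lower fold change, and their median was -0.13.

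ILV6 had 985 and 1667 CPM in naive cells and 450 and 538 CPM in [ESI+] cells. The groups did not overlap, although the naive libraries differed from each other by more than the [ESI+] libraries did. The log2 fold change was -1.42 ± 0.38 (edgeR, adjusted p = 0.0174). GDH1, the NADP-dependent glutamate dehydrogenase that fixes ammonium, had 862 and 1457 CPM in naive cells and 532 and 432 CPM in [ESI+] cells. It too was lower without overlap, by -1.27 ± 0.32 on the log2 scale (edgeR, adjusted p = 0.0147).

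HIS3 had an adjusted p of 0.0024 to 0.0378 in the 4 fits without a library. The calls for ILV6 and GDH1 each held in 1 of the 4, the fit without naive replicate 1, with adjusted p up to 0.132 and 0.146 in the others. Without naive replicate 1, 14 of the 47 genes (29.8%) were lower and none higher, beside 24.1% of all genes called in that fit. Without naive replicate 2, without [ESI+] replicate 1 or without [ESI+] replicate 2, the count was 1, beside 6.60%, 14.5% and 4.30% of all genes. On the log2(TPM + 1) scale, where the median of all genes moved to 0.74, limma called 13 higher and 1 lower, against 1 higher and 3 lower here, and the median of the 47 genes was 0.45. Scaled by the spike-ins, all genes had a median of 0.80 and the 47 genes one of 0.65. None of the 47 was called, HIS3 included, which stood at -1.02 with an SE of 0.99 there.

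**Figure D3:**
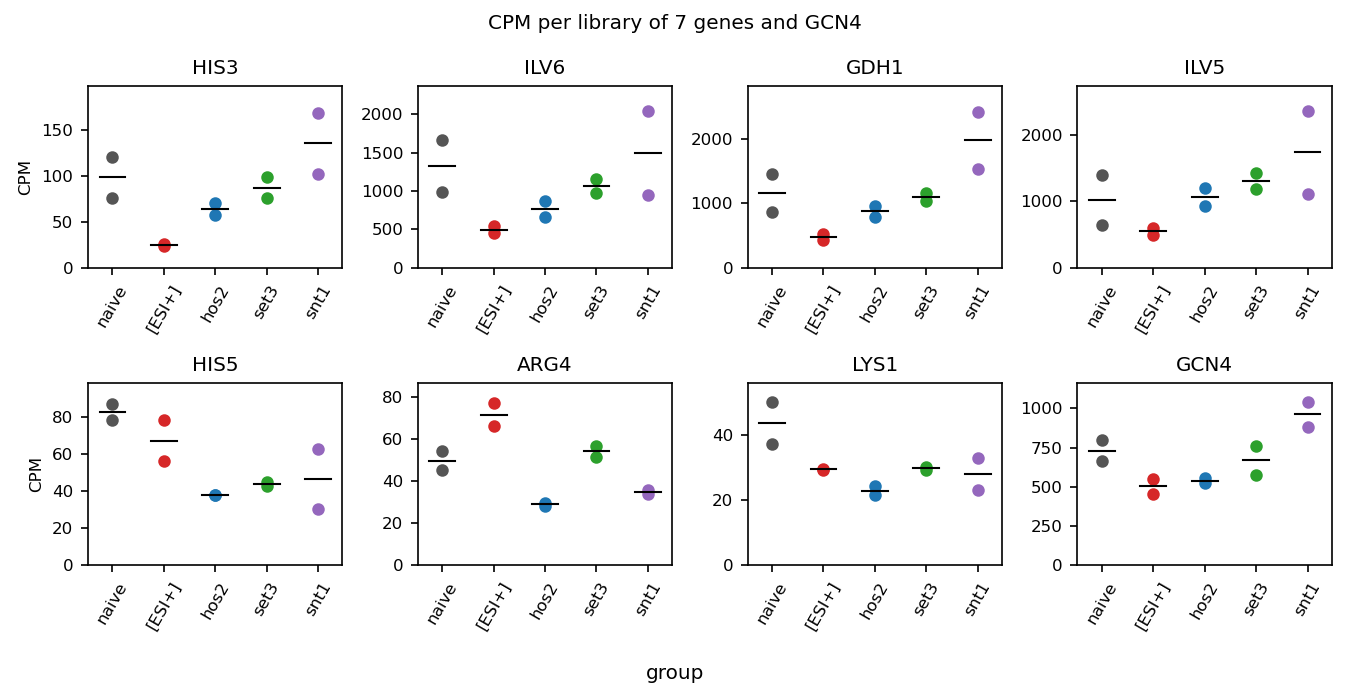
CPM of 6 genes called against naive, of ILV5 and of GCN4, with 1 point per library, a bar at the mean of the 2 libraries and axes that start at 0. HIS3, ILV6, GDH1 and ILV5 are lowest in [ESI+], and HIS5, ARG4 and LYS1 have their lowest mean without HOS2.

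By pathway, all 5 isoleucine and valine genes had a log2 fold change below 0 in [ESI+], with a median of -0.52, and ILV6 was the called one. ILV5 had 637 and 1393 CPM in naive cells and 498 and 602 CPM in [ESI+] cells, at -0.88 ± 0.41 (edgeR, adjusted p = 0.124). All 4 genes of amide and glutamate synthesis were below 0 as well, with a median of -0.67, and GDH1 was the called one. The branched-chain transaminases BAT1 and BAT2 were at -0.62 (adjusted p = 0.0814) and -0.59 (adjusted p = 0.074), both without overlap. The 7 arginine genes had the highest median, 0.43. The highest uncalled value was that of ARG3, at 0.873 and 1.71 CPM in naive cells and 2.52 and 3.50 CPM in [ESI+] cells, or 1.27 ± 0.50 (edgeR, adjusted p = 0.0757). With the reads at silent genes subtracted, ARG3 stood at 0.98 (adjusted p = 0.158). The lowest uncalled value was that of ARO2, chorismate synthase, which had 372 and 599 CPM in naive cells and 256 and 245 CPM in [ESI+] cells (-0.96 ± 0.34, edgeR, adjusted p = 0.0537). Fold change rose with coding length, with a Pearson correlation across genes of 0.43 over the 47 and 0.19 over all 6390, as a description of genes that share the same libraries.

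GCN4 had 662 and 800 CPM in naive cells and 549 and 453 CPM in [ESI+] cells. Both [ESI+] libraries lay below both naive ones, but the difference of -0.55 ± 0.25 did not pass (edgeR, adjusted p = 0.117), and its sign turned with spike-in library sizes (0.34) and on the TPM scale (0.22). LYS2 had 36.6 and 54.8 CPM in naive cells and 58.1 and 53.7 CPM in [ESI+] cells, so the groups overlapped (0.30 ± 0.24, edgeR, adjusted p = 0.371).

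**Figure D4:**
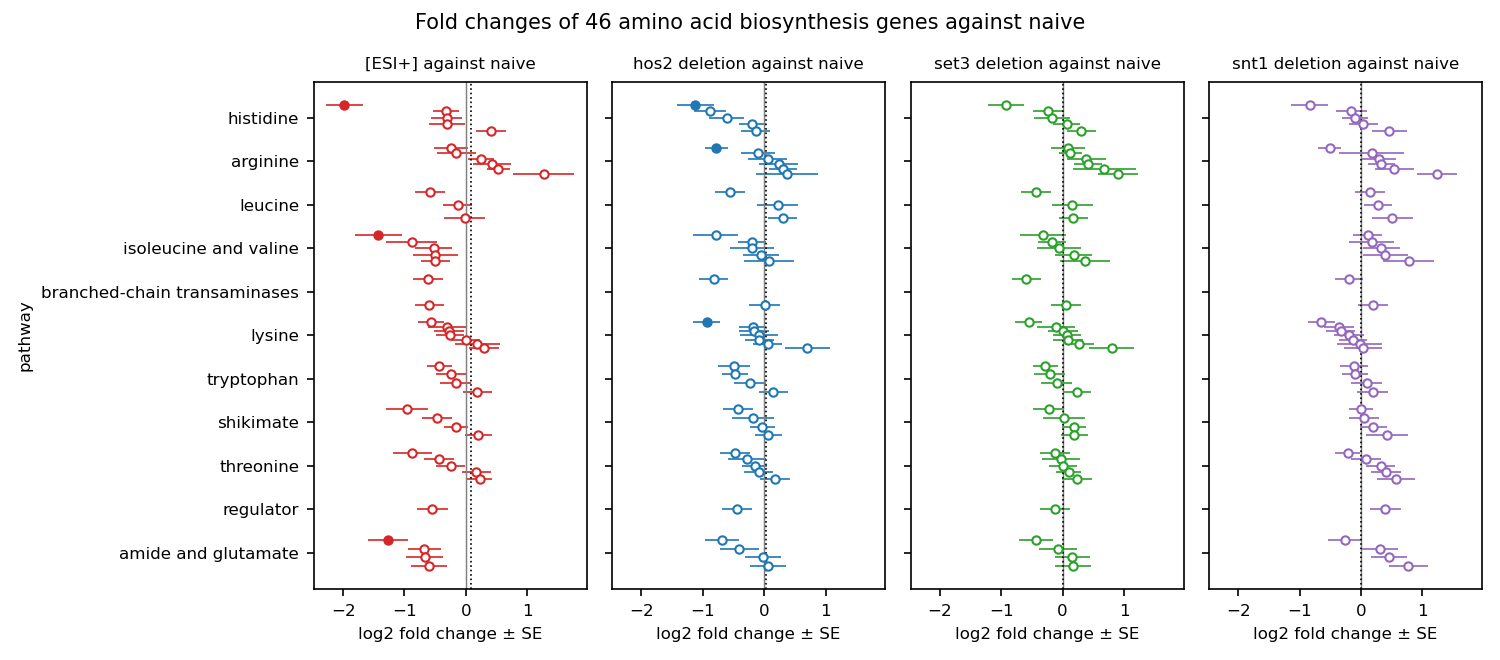
Log2 fold change against naive ± SE of 46 of the genes in 4 comparisons, grouped by pathway; filled points passed the adjusted p of 0.05, and the dotted line is the median of all genes. There are 3 filled points for [ESI+], 3 for the hos2 deletion and 0 for the other deletions.

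Without HOS2, HIS5, ARG4 and LYS1 were lower than in naive cells and none of the 47 was higher. These 3 are 6.38% of the 47, beside 7.65% of all genes called in this comparison, 2.96% higher and 4.69% lower (edgeR, adjusted p under 0.05). At an unadjusted p under 0.05 there were 8 of the 47, beside 23.4% of all genes. The median log2 fold change was -0.17, beside 0.027 for all genes. At 15 of the 47 both hos2 libraries lay below both naive libraries, and at 4 above, beside 26.7% and 30.4% of all genes.

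HIS5, histidinol-phosphate aminotransferase, had 78.3 and 86.8 CPM in naive cells and 37.9 CPM in both hos2 libraries. The log2 fold change was -1.12 ± 0.30 (edgeR, adjusted p = 0.0431). In the set3 libraries it had 44.6 and 42.3 CPM, and in the snt1 libraries 62.4 and 29.9 CPM, all below the naive values, yet neither comparison passed (-0.92, adjusted p = 0.131, and -0.84, adjusted p = 0.427). The [ESI+] libraries, at 78.0 and 55.8 CPM, reached to just below the lower naive value.

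ARG4, argininosuccinate lyase, which releases arginine, had 45.0 and 54.1 CPM in naive cells and 29.5 and 28.1 CPM without HOS2. The groups did not overlap, and the log2 fold change was -0.78 ± 0.19 (edgeR, adjusted p = 0.0298). In [ESI+] cells ARG4 stood above naive at 66.2 and 76.8 CPM (0.53 ± 0.19, edgeR, adjusted p = 0.0507, not past the threshold). LYS1, the saccharopine dehydrogenase that forms lysine, had 37.2 and 50.2 CPM in naive cells and 24.2 and 21.4 CPM without HOS2. That is -0.94 ± 0.22 on the log2 scale (edgeR, adjusted p = 0.0269). LYS1 was also below naive without overlap in the [ESI+], set3 and snt1 libraries, which ranged from 23.0 to 32.8 CPM, though none of those comparisons passed (adjusted p from 0.0655 to 0.376).

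The calls for ARG4 and LYS1 each held in 1 of the 4 fits without a library, the one without naive replicate 1, with adjusted p up to 0.243 and 0.229 in the others. That for HIS5 held in none (adjusted p from 0.0876 to 0.290). Over those 4 fits the log2 fold change ran from -1.19 to -1.06 for HIS5. It ran from -0.90 to -0.65 for ARG4 and from -1.13 to -0.71 for LYS1. No member was called with spike-in library sizes or by limma on log2(TPM + 1), scales on which the median of all genes was 0.25 and 0.33.

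Of the genes not called, HIS4, a multifunctional histidine enzyme, was lowest, with 459 and 701 CPM in naive cells and 282 and 346 CPM without HOS2 (-0.89 ± 0.26, edgeR, adjusted p = 0.0574). All 5 histidine genes were below 0, and their median of -0.61 is the value of HIS3. HIS1 (-0.19) and HIS7 (-0.14) overlapped the naive libraries, and at the other 3 both hos2 libraries lay below them. LYS20, a homocitrate synthase, was highest, with 121 and 214 CPM in naive cells and 259 and 285 CPM without HOS2 (0.70 ± 0.37, edgeR, adjusted p = 0.274). GCN4, at 521 and 552 CPM, lay below both naive libraries (-0.45 ± 0.25, edgeR, adjusted p = 0.303). HIS3, at 58.0 and 70.9 CPM, did too (-0.61 ± 0.29, edgeR, adjusted p = 0.226).

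Without SET3 or without SNT1 none of the 47 genes passed edgeR's test. The share of all genes called was 2.5% without SET3 and 0.454% without SNT1. At an unadjusted p under 0.05 there were 4 genes without SET3 and 5 without SNT1, beside 17.8% and 9.41% of all genes, DESeq2 called 1 in each, and limma called 0 in each. Without snt1 replicate 1, 3 of the 47 (6.38%) were called in the snt1 comparison, beside 4.74% of all genes. Without SET3 7 of the 47 genes had both libraries above naive and 5 below, beside 24.5% of all genes each way. Without SNT1 there were 5 above and 4 below, beside 13.2% and 17.2%. The median of the 47 was 0.058 without SET3 and 0.14 without SNT1, beside 0.0038 and -0.0044 for all genes.

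ARG1, argininosuccinate synthetase, had the highest fold change in both of these deletions. It had 44.1 and 84.3 CPM in naive cells, 134 and 106 CPM without SET3, and 112 and 192 CPM without SNT1. All 4 deletion libraries lay above both naive libraries, but the differences of 0.91 ± 0.33 and 1.24 ± 0.33 did not pass (edgeR, adjusted p = 0.173 and 0.196). HIS5 had the lowest fold change in both. GCN4 had 763 and 577 CPM without SET3, around the naive values (-0.13 ± 0.25, edgeR, adjusted p = 0.836, with a sign that turned without naive replicate 2 or without set3 replicate 2). Without SNT1 it had 1045 and 884 CPM, above both naive libraries (0.40 ± 0.25, edgeR, adjusted p = 0.667, and -0.16 with spike-in library sizes). HIS3 had 98.5 and 75.9 CPM without SET3 and 102 and 169 CPM without SNT1, overlapping the naive range each time.

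Set directly against the mean of the 3 deletions, [ESI+] differed at 13 of the 47 genes, of which 3 were higher and 10 lower. That is 27.7% of the 47, beside 35.1% of all genes, 19.2% higher and 15.9% lower (edgeR, adjusted p under 0.05). At an unadjusted p under 0.05 there were 17, beside 46.6% of all genes. At 3 of the 47 both [ESI+] libraries lay above all 6 deletion libraries and at 15 below, beside 25.9% and 20.7% of all genes. The median log2 difference was -0.24, beside 0.084 for all genes. The naive level does not enter this contrast, but the naive libraries share in its filter, library scaling and estimate of spread. With only the compared groups fitted, 14 of the 47 were called (29.8%, beside 35.7% of all genes), 2 higher and 12 lower. HIS5, called in the main fit, was not called in that one. The comparison asks where [ESI+] and loss of the Set3 complex leave these genes at different levels.

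With the strain marker HIS3 set aside, 3 of 46 genes were higher and 9 lower (26.1%, beside 35.1% of all genes). HIS3 was again lowest, at 26.1 and 23.9 CPM in [ESI+] against 58.0 to 169 CPM in the deletions (-1.87 ± 0.27, edgeR, adjusted p = 0.000787). Both of its neighbours were lower here as well, MRM1 by -0.58 ± 0.17 (edgeR, adjusted p = 0.0199) and DED1 by -1.13 ± 0.34 (edgeR, adjusted p = 0.0245). GDH1, at 532 and 432 CPM against 788 to 2424 CPM, differed by -1.36 ± 0.28 (edgeR, adjusted p = 0.00467). ILV5, at 498 and 602 CPM against 927 to 2359 CPM, differed by -1.29 ± 0.36 (edgeR, adjusted p = 0.0183). In HIS3, GDH1 and ILV5 each [ESI+] library lay below each deletion library.

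The other lower genes were ILV6 (-1.11 ± 0.32), ARO2 (-1.04 ± 0.29), THR1, homoserine kinase (-0.96 ± 0.27), ARG1 (-0.95 ± 0.28), the asparagine synthetases ASN1 (-0.85 ± 0.25) and ASN2 (-0.80 ± 0.25), and BAT1 (-0.70 ± 0.21). Their adjusted p ranged from 0.0175 for THR1 to 0.0278 for ASN2, and at each of the 7 the groups did not overlap. ARG1 stands apart among them, since its [ESI+] values of 55.3 and 59.7 CPM lay within the naive range.

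Of the higher genes, ARG4 was at 66.2 and 76.8 CPM against 28.1 to 56.4 CPM in the deletions (0.92 ± 0.14, edgeR, adjusted p = 0.00124). Both [ESI+] libraries were above all 6 deletion libraries. HIS5, at 78.0 and 55.8 CPM against 29.9 to 62.4 CPM, overlapped and was called narrowly (0.66 ± 0.23, edgeR, adjusted p = 0.0459). GCN4 differed by -0.49 ± 0.21 (edgeR, adjusted p = 0.0876), a sign that turned with spike-in library sizes (0.64) and on the TPM scale (0.21).

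HIS3 and ARG4 were called in all 8 fits without a library, with adjusted p up to 0.0372 and 0.0499. GDH1 was called in 7, all but the one without [ESI+] replicate 2 (adjusted p = 0.104), and HIS5 in 2 (adjusted p up to 0.391). Each of the other 8 genes named for this comparison was called in 6, all but those without an [ESI+] library. Without [ESI+] replicate 1 the count of called genes was 4 (8.51%, beside 19.8% of all genes), and without [ESI+] replicate 2 it was 3 (6.38%, beside 4.10%). Scaled by the spike-ins, where all genes had a median of 1.10, none was called. Limma on log2(TPM + 1), where that median was 0.67, called 18 higher and 2 lower, against 3 higher and 10 lower here, and with reads at silent genes subtracted there were 4 higher and 4 lower. The directions of ARG1, BAT1, ARO2, THR1, ASN1 and ASN2 turned with spike-in library sizes, to between 0.059 and 0.45.

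Among the 3 deletions themselves none of the 47 genes differed by edgeR's F-test over the groups, while 0.939% of all genes did. There were 8 genes at an unadjusted p under 0.05, beside 17.1% of all genes, DESeq2's likelihood ratio test called 6, and limma called 1. Without snt1 replicate 1 edgeR called 6 (12.8%, beside 11.2% of all genes), and without snt1 replicate 2 it called 2 (4.26%, beside 1.68%). With all libraries the smallest adjusted p was that of ARG4 (0.0649), which had 29.5 and 28.1 CPM without HOS2, 56.4 and 51.4 CPM without SET3 and 35.8 and 33.8 CPM without SNT1. The set3 libraries of ARG4 lay above the other 4.

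The balance of paralogs was read as the share of the first gene in the summed TPM of its pair, which no library scaling can alter. BAT1 encodes the mitochondrial and BAT2 the cytosolic branched-chain transaminase. BAT1 took 65.1% and 65.9% in naive cells and 65.7% and 64.5% in [ESI+] cells. Without HOS2 it took 75.6% and 78.8%, without SET3 73.2% and 76.6%, and without SNT1 71.7% and 71.0%. All 6 deletion libraries were thus above all 4 others. No test was made of this split. BAT2 itself had 225 and 304 CPM in naive cells, 157 and 142 CPM without HOS2, 188 and 163 CPM without SET3 and 218 and 245 CPM without SNT1. The snt1 values overlap the naive ones, although the share of BAT1 was raised there too. In [ESI+], where the share was at the naive level, BAT2 had 194 and 157 CPM, overlapping the values without SET3. BAT1 overlapped the naive range in each deletion comparison.

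LEU4, the main isopropylmalate synthase, took 70.7% to 82.7% of its pair with LEU9, highest in the naive libraries. LYS20 took 53.2% to 72.3% of its pair with LYS21, the other homocitrate synthase. The hos2 and set3 libraries, all at 70.8% or more, lay above the naive values of 55.5% and 60.4%. The [ESI+] libraries, at 63.5% and 68.6%, lay above both naive values too, and the snt1 libraries, at 53.2% and 65.9%, lay on either side of them. ARO3 and ARO4 encode the first enzyme of the shikimate pathway, inhibited by phenylalanine and by tyrosine respectively. ARO3 took 18.1% to 27.6%, with naive values of 24.0% and 18.8% that span much of that range. ASN1 took 47.2% to 52.8% of its pair with ASN2 in all 10 libraries. Reads are shared within the LEU, LYS and ASN pairs, so their shares rest on the authors' division of those reads.

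**Figure D5:**
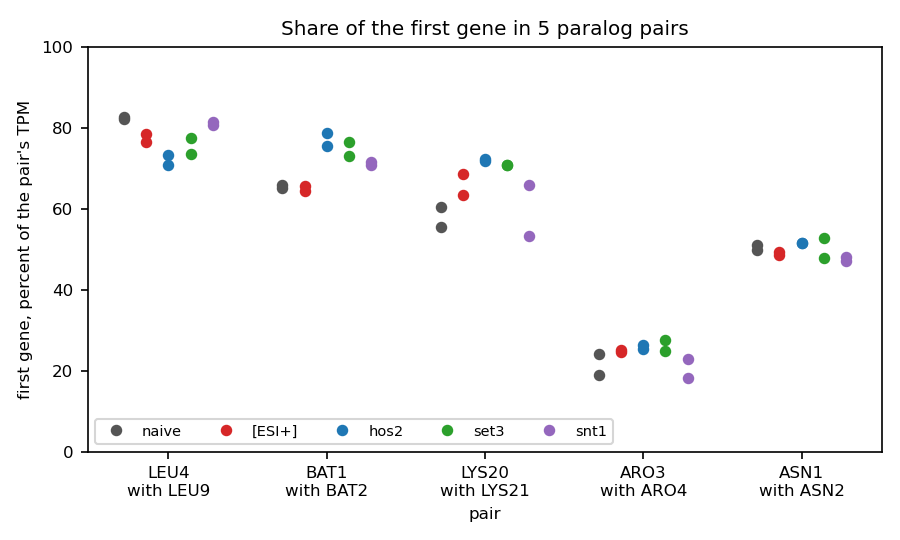
Share of the first gene of 5 paralog pairs in the pair's summed TPM, in percent, with 1 point per library and groups side by side. For BAT1 with BAT2 the 6 deletion points lie at 71.0% to 78.8%, above the naive and [ESI+] points at 64.5% to 65.9%.

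In [ESI+] against naive the median was -0.37 for the 26 genes with the motif and -0.24 for the 21 without, and 2 genes with it and 2 without it were called. The 3 genes called without HOS2 (HIS5, ARG4 and LYS1) are among the 26. In the direct comparison with the deletions the medians were -0.21 and -0.25. No test was made of these differences.

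Of 15 genes that control GCN4 translation or the turnover of Gcn4 protein, 5 were higher and 2 lower in [ESI+] than in naive cells, with a median of 0.19. That is 46.7% of the list, beside 28.3% of all genes, whose median was 0.093. YIH1, an inhibitor of Gcn2 activation, had 91.4 and 136 CPM in naive cells and 31.6 and 32.0 CPM in [ESI+] cells (-1.84 ± 0.27, edgeR, adjusted p = 0.00131). GCN2, the kinase itself, had 13.4 and 9.27 CPM in naive cells and 22.8 and 26.9 CPM in [ESI+] cells (1.12 ± 0.22, edgeR, adjusted p = 0.00447). PHO85, the cyclin-dependent kinase that marks Gcn4 protein for degradation, was lower (-1.14 ± 0.22, adjusted p = 0.00417), and GCD6, a subunit of initiation factor eIF2B, was higher (0.92 ± 0.23, adjusted p = 0.014). Without HOS2, GCN2 (0.86) and GCD6 (0.86) were higher and none of the 15 was lower, or 13.3% beside 7.65% of all genes. Each of these calls held in 1 of the 4 fits without a library (adjusted p up to 0.265 and 0.317), that of GCN2 was lost by limma on log2(TPM + 1), and that of GCD6 by limma and with RLE size factors. In the set3 and snt1 comparisons edgeR called none, with 4 and 1 at an unadjusted p under 0.05, beside 17.8% and 9.41% of all genes. With the trend in coding length removed, the calls of GCN2 and GCD6 were lost in both comparisons and those of YIH1 and PHO85 held. Limma lost the PHO85 call. YIH1 held in all 4 [ESI+] fits without a library, PHO85 in 3 (adjusted p = 0.0743 without [ESI+] replicate 2), GCN2 in 2 and GCD6 in 1 (adjusted p up to 0.0684 and 0.169).

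Of 14 pathway-specific regulators, 1 was higher and 2 were lower in [ESI+], or 21.4% beside 28.3% of all genes. ARG80, a subunit of the complex that represses arginine synthesis, had 21.4 and 32.3 CPM in naive cells and 6.52 and 6.32 CPM in [ESI+] cells (-2.06 ± 0.24, edgeR, adjusted p = 0.000519). It had 8.08 and 10.4 CPM without HOS2 (-1.54 ± 0.24, adjusted p = 0.00487), 9.29 and 10.8 CPM without SET3 (-1.43 ± 0.24, adjusted p = 0.0136) and 15.7 and 19.7 CPM without SNT1 (-0.60 ± 0.24, adjusted p = 0.494). All 8 of these libraries lay below both naive libraries. ARG80 was the 1 regulator called without HOS2 and without SET3, or 7.14% of the list each time, beside 7.65% and 2.5% of all genes. Limma on log2(TPM + 1) lost both of these calls of ARG80. MCM1, its partner in that complex, was lower in [ESI+], with 95.9 and 130 CPM in naive cells and 29.1 and 29.8 CPM in [ESI+] cells (-1.94 ± 0.34, edgeR, adjusted p = 0.00309). In the hos2 deletion MCM1 stood at 0.055 (adjusted p = 0.947). The ARG80 call held in all 4 fits without a library in [ESI+], in 2 without HOS2 and in 1 without SET3 (adjusted p up to 0.124 and 0.149), and that of MCM1 in 3 (0.0518 without [ESI+] replicate 2). LYS14, the activator of lysine genes, was higher in [ESI+] (0.73 ± 0.24, edgeR, adjusted p = 0.0413), a call lost when any 1 of the 4 libraries was left out (adjusted p from 0.0625 to 0.304).

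Of 38 other amino acid biosynthesis genes, 3 were higher and 6 lower in [ESI+], or 23.7% beside 28.3% of all genes, with a median of -0.082. PRO3, of proline synthesis, was lower (-1.34 ± 0.27, edgeR, adjusted p = 0.00605), GDH3, a paralog of GDH1, was lower (-1.29 ± 0.31, adjusted p = 0.0117), and so was the aspartate aminotransferase AAT2 (-1.07 ± 0.27, adjusted p = 0.0149). GDH2, which degrades glutamate, was higher (0.95 ± 0.21, edgeR, adjusted p = 0.00772), a call lost with the trend in coding length removed. Limma on log2(TPM + 1) lost the calls of PRO3, GDH3 and AAT2. SHM2, a serine hydroxymethyltransferase, had 2825 and 3973 CPM in naive cells and less in every other library. It had 1484 and 1487 CPM in [ESI+], 1606 and 1268 CPM without SET3 and 2586 and 1298 CPM without SNT1. Without HOS2 it was lower, at 932 and 1035 CPM (-1.79 ± 0.34, edgeR, adjusted p = 0.0123). GDH3, ALT1 and SER3 were lower with it, making 4 of 38 or 10.5%, beside 7.65% of all genes. Without SET3 GDH3 was the 1 called (-1.40 ± 0.32, edgeR, adjusted p = 0.0445), or 2.63% of the list beside 2.5% of all genes. Of 15 amino acid permeases, MUP1 and DIP5 were higher in [ESI+], and TAT2 (-0.79) and GNP1 (-0.78) were lower, with signs that turned under spike-in library sizes. These 4 are 26.7% of the list, beside 28.3% of all genes. The calls of MUP1, TAT2 and GNP1 each held in 1 of the 4 fits without a library and that of DIP5 in none (adjusted p up to 0.325, 0.165, 0.220 and 0.226). Those of MUP1 and DIP5 were also lost with RLE size factors and with the trend in coding length removed, and those of TAT2 and GNP1 by limma. MUP1, the methionine permease, had 33.2 and 34.5 CPM in naive cells and from 49.5 to 96.0 CPM in all other libraries. The general permease GAP1 was lower without HOS2 (-1.28 ± 0.30, edgeR, adjusted p = 0.0291). MUP1 was higher without SET3 (1.31 ± 0.31, edgeR, adjusted p = 0.0495). Each was the 1 permease called in its comparison, or 6.67% of the list, beside 7.65% and 2.5% of all genes. In the snt1 deletion edgeR called none of the regulators, other biosynthesis genes or permeases, with 2 of 14, 4 of 38 and 4 of 15 at an unadjusted p under 0.05, beside 9.41% of all genes. Scaled by the spike-ins, none of the genes named from these 4 lists was called. Limma lost every named call of the other biosynthesis genes and permeases without HOS2 and without SET3. Those of MUP1 and GDH3 without SET3 were lost with RLE size factors too, and that of MUP1 with silent gene reads subtracted. Removal of the trend in coding length lost ALT1 and SER3 without HOS2 and GDH3 without SET3. In the fits without 1 library PRO3 and GDH2 each held in 2 of 4 for [ESI+] and GDH3 and AAT2 in 1, and GAP1 and GDH3 held in 2 and SHM2 in 1 for HOS2. ALT1 and SER3 without HOS2 and GDH3 and MUP1 without SET3 held in none.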

How the data were processed

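The deposited values of the 10 libraries are expected counts and TPM per target, per the file headers, from kallisto 0.44 and genome build R64, per the submitters' processing notes. Expected counts are the authors' unnormalized estimates, not whole where targets share reads, and the deposited TPM are scaled by the authors over 7218 targets, 92 of them ERCC spike-ins. Per the labels' protocols, cDNA was primed on poly(A) tails and sequenced in pairs. Whether strand was kept is not given in the sources used here.

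Expected counts were rounded and spike-ins set aside. edgeR 4.0.16 (R 4.3.3) kept genes by filterByExpr and fitted all 10 libraries with TMM sizes and 1 coefficient per group (robust quasi-likelihood, two-sided, Benjamini-Hochberg over all genes, threshold 0.05). The SE is the fold change over the square root of F. The fit was also run on counts simulated from its own dispersions, which checks the code and not the calls made here.

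The text names GCN4, HIS3, LYS2, 5 paralog pairs, every called member but 1, which is not reported here (for [ESI+] against the deletions up to 12 per direction), the highest and lowest uncalled members, and up to 4 called genes per other list by smallest p. HIS4 and ARO2 are such extremes; MRM1 and DED1, the neighbours of HIS3, and ILV5, BAT2 and LEU2 were added after their values were seen. The members and lists were chosen with earlier results of these data known.

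Alternatives were DESeq2 1.42.0, RLE size factors, spike-in library sizes, other filters, only the groups compared, a replicate block, limma 3.58.1 on log2(TPM + 1), removal of a loess trend (span 0.5) with coding length, subtraction of reads at silent genes, and leaving out each library. Silent genes are those of at least 300 bases with a mean under 0.2 CPM per kb. That mean is over the groups other than a library's own and [ESI+], without TMM scaling. Motifs were read from RefSeq's R64 sequence, in which all 47 genes had the same coding length as in the files.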

Additional observations from a re-analysis of the deposited data

Results flagged for a closer look

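For the 12 genes below the change in [ESI+] differed from the mean change in the 3 deletions, by a direct contrast in the edgeR fit with p adjusted over all genes. The naive level cancels in that contrast, though the naive libraries take part in the fit. The difference on the log2 scale, [ESI+] minus the mean of the deletions, was -1.87 for HIS3, -1.36 for GDH1, -1.29 for ILV5 and -1.11 for ILV6. It was -1.04 for ARO2, -0.96 for THR1, -0.95 for ARG1, -0.85 for ASN1, -0.80 for ASN2 and -0.70 for BAT1. It was above 0 for ARG4 (0.92) and HIS5 (0.66). For ARG4 both [ESI+] libraries lay above both naive libraries, a difference that did not pass by itself (edgeR, adjusted p = 0.0507). Its hos2 and snt1 libraries lay below naive, while its set3 libraries, at 56.4 and 51.4 CPM, overlapped the naive values of 45.0 and 54.1 CPM. Groups of 2 libraries are too small for a check of single outlying libraries.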

How the results depend on the processing

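With 2 libraries per group, the counts of called genes among the 47 moved with the setting, and so did those of all genes, given here in brackets as a share of the genes tested. For [ESI+] against naive (4 called, 28.3%) DESeq2 called 15 (32.1%), limma 14 (44.4%), the fit of only the groups compared 9 (35.9%), the replicate block 8 (36.5%) and spike-in library sizes 0 (0.501%), and leaving out 1 library gave 1 to 14. For the hos2 deletion (3, 7.65%) DESeq2 called 6 (11.9%), the filter at a mean of 10 CPM 5 (13.9%) and the replicate block 5 (13.3%). Subtraction of silent gene reads called 5 there (8.45%), limma 0 (2.22%) and spike-in library sizes 0 (0.0782%). For the set3 deletion (0, 2.5%) DESeq2 called 1 (6.63%), only the groups compared 2 (9.08%) and the replicate block 2 (6.31%), and for the snt1 deletion (0, 0.454%) DESeq2 called 1 (1.55%) and the replicate block 1 (0.923%), with 0 to 3 without 1 library. For [ESI+] against the deletions (13, 35.1%) limma called 20 (52.7%), subtraction of silent gene reads 8 (27.2%) and spike-in library sizes 0 (3.72%), with 3 to 19 without 1 library. Among the deletions (0, 0.939%) DESeq2 called 6 (7.80%) and the filter at 10 CPM (4.04%), the replicate block (5.45%) and limma (0.469%) 1 each, with 0 to 6 without 1 library. The labels do not tie libraries of the same number to each other, so the numbers were not taken as a pairing. Correlations of the replicate differences ran from -0.073 to 0.35 over the 10 pairs of groups. They were above 0 in 8 pairs and over 0.1 in 5. Whether libraries of the same number share a batch was not tested. The block lost none of the calls of the 47 genes made without it.

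Signs turned mostly with spike-in library sizes, and the cause was not tested. The spike-ins took 0.946% and 5.19% of the estimated counts in the [ESI+] replicates and 1.43% and 3.31% in the naive replicates. In the deletion libraries they took 1.87% to 3.20%. This scaling thus differs widely within the [ESI+] pair. Spike-in library sizes moved the median of all genes to 0.80 for [ESI+], 0.25 for hos2, -0.50 for set3, -0.66 for snt1 and 1.10 for [ESI+] against the deletions. For [ESI+] against naive GCN4 became 0.34, TAT2 0.11 and GNP1 0.14. For snt1 GCN4 became -0.16 and HIS3 -0.076. Against the deletions ARG1 became 0.094, BAT1 0.45, ARO2 0.059, THR1 0.067, ASN1 0.22, ASN2 0.30, ILV3 0.44 and GCN4 0.64. On the TPM scale GCN4 became 0.22 against naive and 0.21 against the deletions, and ILV3 0.013. For set3, fits without 1 library ran from -0.35 to 0.066 for GCN4 and from -0.46 to 0.19 for HIS3. HIS3 in [ESI+] was called in every alternative run except spike-in library sizes. Depth limits ARG3, with 10 counts in the shallowest library.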
